A study of Mus musculus with 4 samples.

Results

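Thy1 and the Ly6 proteins are small surface antigens by which mouse lymphocytes have long been told apart. The 6 genes described here, Thy1, Ly6a, Ly6c1, Ly6c2, Ly6d and Ly6e, are the rows with those names among 54532 genes in the deposited table. They were chosen by their FPKM in DMF against control libraries, so their values in that comparison are a description and carry no test. The DMF group (2 libraries) and the control group (2 libraries) were RNA-seq libraries of naive CD4+ T cells from the spleen of wild-type mice (WT), grown for 3 days in conditions that direct T cells to the T follicular helper (Tfh) fate. The DMF group was grown with dimethyl fumarate, an ester of fumaric acid and a known activator of Nrf2, a transcription factor of the antioxidant response. The control group had no treatment. The dose, the age of the mice and whether replicates came from separate animals or cultures are not given in the labels, so spreads and p-values measure only the difference between these libraries, which may be technical. The series title links DMF to chronic graft-versus-host disease and to Tfh differentiation, and the comparison asks what DMF does to transcripts in these cultures.

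Thy1 (CD90) belongs to the immunoglobulin superfamily and coats mouse T cells, thymocytes and neurons. The Ly6 proteins share a three-fingered, disulfide-bonded fold with the urokinase receptor. All are tied to the outer face of the cell membrane by a glycosylphosphatidylinositol (GPI) anchor, a lipid tail made in the endoplasmic reticulum. Several Ly6 genes, Ly6a and Ly6e among them, are known to respond to interferons, and Ly6d marks progenitors committed to the B lineage.

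Thy1 lies on chromosome 9 (GRCm38, 44043384 to 44048579, plus strand) and the 5 Ly6 genes on chromosome 15. Ly6d starts the Ly6 interval at 74762056 and Ly6c2 ends it at 75111970. Between them lie Ly6e (74955051 to 74959905), Ly6a (74994877 to 74998031) and Ly6c1 (75044018 to 75048830). All 6 are protein-coding, with coding sequences of 384 bases in Ly6d to 489 bases in Thy1. The sequences of Ly6c1 and Ly6c2 are shown because these neighbours differ in their values below although their coding parts are nearly the same. The coding sequences (GENCODE M21) have 396 bases each and differ at 9 of them. Bases 1 to 300 are printed, and capitals mark the 7 differing bases that lie there.
Ly6c1: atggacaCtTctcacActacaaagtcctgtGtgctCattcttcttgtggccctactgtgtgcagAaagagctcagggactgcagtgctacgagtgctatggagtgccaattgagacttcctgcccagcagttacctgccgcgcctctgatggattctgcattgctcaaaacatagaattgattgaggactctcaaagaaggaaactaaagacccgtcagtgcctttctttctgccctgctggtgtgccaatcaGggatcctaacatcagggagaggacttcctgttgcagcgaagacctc
Ly6c2: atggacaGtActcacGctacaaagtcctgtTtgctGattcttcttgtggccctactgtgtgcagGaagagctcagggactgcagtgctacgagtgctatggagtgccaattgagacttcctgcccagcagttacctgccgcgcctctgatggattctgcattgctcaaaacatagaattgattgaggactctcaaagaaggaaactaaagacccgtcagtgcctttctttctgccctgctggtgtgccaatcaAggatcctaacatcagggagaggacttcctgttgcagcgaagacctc
The coding sequences of Ly6c1 and Ly6c2 were 97.7% identical, and that of Ly6a was 82.0% identical to Ly6c1. Ly6d, Ly6e and Thy1 lay between 47.3% and 53.5% identity with every other member. Of all 50-base stretches in the transcripts of Ly6c1, 32.8% also occurred in transcripts of another gene. The share was 19.0% for Ly6a and 14.5% for Ly6c2, and 0 stretches of Thy1, Ly6d and Ly6e were shared. The levels of Ly6a, Ly6c1 and Ly6c2 are therefore uncertain to the extent that reads were split or moved between them, while those of Thy1, Ly6d and Ly6e do not have this limit.

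The 250 bases before the transcription start are shown for the same pair, from RefSeq (GRCm38, minus strand, chr15:75048838-75049087 for Ly6c1 and chr15:75111972-75112221 for Ly6c2). RefSeq promoters were matched for 2 of the 6 genes, each with 2 starts, of which the farther upstream is printed. Capitals mark the only match found for the motifs searched.
Ly6c1: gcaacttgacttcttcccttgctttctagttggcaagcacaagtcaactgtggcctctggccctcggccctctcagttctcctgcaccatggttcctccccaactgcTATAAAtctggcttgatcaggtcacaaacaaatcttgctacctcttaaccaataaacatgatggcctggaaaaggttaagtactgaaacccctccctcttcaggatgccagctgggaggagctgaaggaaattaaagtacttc
Ly6c2: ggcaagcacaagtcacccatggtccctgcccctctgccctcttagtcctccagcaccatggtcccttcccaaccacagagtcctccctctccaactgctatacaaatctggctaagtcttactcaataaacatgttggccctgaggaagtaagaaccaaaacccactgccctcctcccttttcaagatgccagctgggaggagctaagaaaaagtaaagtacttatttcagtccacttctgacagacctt
These windows were 58.1% identical over 284 aligned positions, where a gap counts as a difference. The windows are offset: the letters that open the Ly6c2 window lie further inside the Ly6c1 window. The share therefore depends on the annotated starts and is not set against that of the coding sequences. The letters TATAAA begin 143 bases before the start of Ly6c1 and are not in the Ly6c2 window. On either strand they are in 12.4% of 32851 promoter windows of the same length. The motifs TTCNNNGAA (a STAT site), the interferon-stimulated response element and TGACNNNGC (the core of an antioxidant response element) had 0 matches in both windows, and 7.02%, 2.98% and 10.2% of all windows hold them.

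Reads were worked out from the deposited FPKM, a level per kilobase of gene and per unit of library size. They summed to between 15900118 and 17516953 per library. The library sizes implied by the FPKM differ from these sums. For control replicate 2 the implied size was 13929627, below its 15900118 reads, and in each other library it was above the reads. The FPKM of control replicate 2 are thus scaled up relative to its reads. Control replicate 2 stood apart. The SD over genes of the log2 difference was 0.74 between the controls and 0.32 between the DMF libraries, and the SD lay between 0.45 and 0.46 for control replicate 1 against either DMF library and at 0.85 for control replicate 2. The T cell label was met in all libraries, with Cd3e, a subunit of the T cell receptor complex, at 47.3 and 46.0 FPKM in DMF libraries and 48.2 and 57.3 FPKM in control libraries. Cd4 was at 103 and 100 FPKM in DMF libraries and 128 and 105 FPKM in control libraries. Of 12166 genes tested with limma, 0 passed an adjusted p of 0.05 (0.0%), and 1150 had an unadjusted p under 0.05 (9.45%). With voom, limma's model for counts, 0 passed and 1168 had an unadjusted p under 0.05.

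In the DMF libraries, Thy1, Ly6a, Ly6e and Ly6c1 were lower than in both controls, Ly6d was higher, and Ly6c2 overlapped. In bulk RNA, fewer cells of a type and less RNA per cell cannot be told apart. Both DMF libraries lay under both controls for 4 of the 6 genes and over them for 1, against 26.8% and 26.4% of all tested genes. A difference of -1 or beyond on the log2 scale, without overlap, was found for all 4 and for 4.0% of tested genes. Ly6d was higher by at least 1, as were 1.67% of tested genes. The median difference over all 6 was -1.82 on the log2(FPKM + 1) scale, against -0.01 over all genes tested. This contrast chose the genes, so nothing is read from these shares. The filter on low values, a mean of at least 1 FPKM, left out Ly6c2, and Ly6c1 passed it only through its control values.

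**Figure D1:**
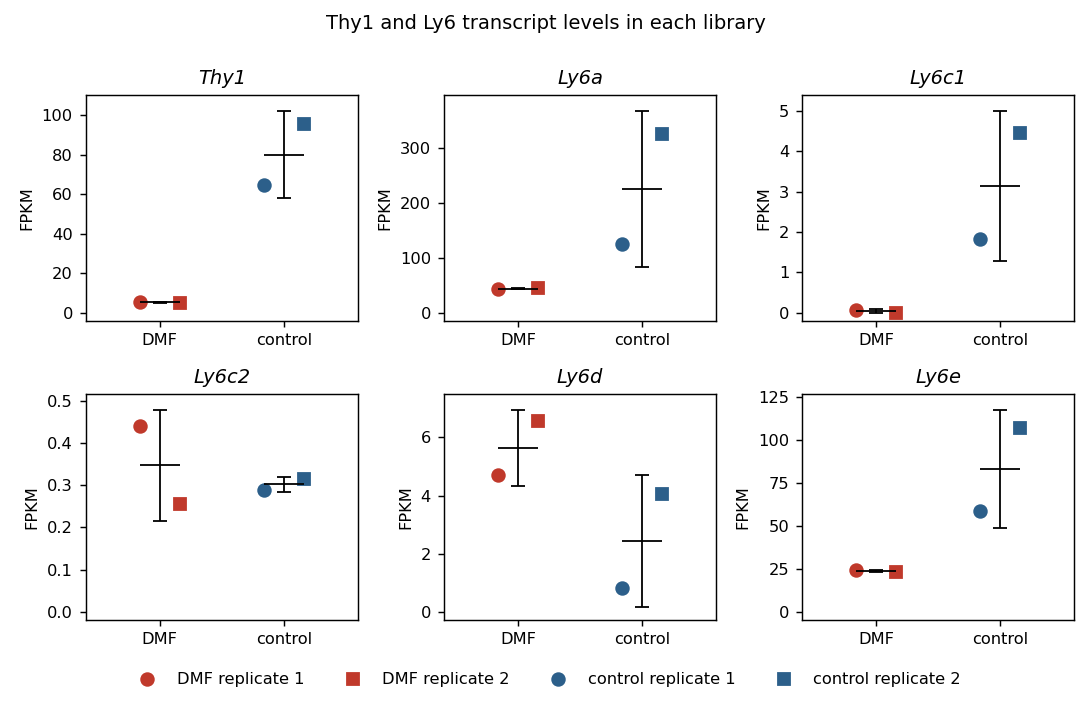
Level of each gene in FPKM (vertical axes, each from about 0 upward on its own scale) in 2 DMF and 2 control libraries, with circles for replicate 1, squares for replicate 2, and the group mean ± SD in black. For Thy1, Ly6a, Ly6c1 and Ly6e the DMF points sit under every control point, for Ly6d they sit over them, and the Ly6c2 groups overlap.

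Thy1 (ENSMUSG00000032011) was at 5.44 and 5.11 FPKM in the DMF libraries (298 and 286 reads), against 64.4 and 95.5 FPKM in the controls (3419 and 3984 reads). The DMF libraries lay close together and far below both controls. The means were 5.28 ± 0.228 FPKM in DMF and 79.95 ± 21.99 FPKM in control libraries (SD, n = 2 each), a ratio of 0.066. The difference of -3.66 on the log2(FPKM + 1) scale was at least matched by 2 of the 12166 tested genes in the downward direction, Thy1 included (0.0164%). Within each library, Thy1 lay above 38.6% and 37.0% of tested genes in DMF libraries and above 93.7% and 93.8% in controls. Set against Cd3e in the same library, Thy1 stood at ratios of 0.115 and 0.111 in DMF libraries and of 1.34 and 1.67 in controls. Against Cd4 the ratios were 0.0528 and 0.0510 in DMF libraries and 0.504 and 0.913 in controls. Cd3e and Cd4 themselves differed little, by -0.17 and -0.19 on the log2 scale. Against Cd2, a T cell marker that differed by -1.62, the gap was smaller. There the ratios of Thy1 were 0.0939 and 0.0861 in DMF libraries and 0.477 and 0.389 in controls. None of these ratios overlapped between the groups.

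Ly6a (ENSMUSG00000075602), which encodes Sca-1, an antigen of blood stem cells and activated lymphocytes, was the most abundant of the 6 in every library. It was at 42.8 and 44.2 FPKM in DMF libraries (943 and 995 reads), against 125 and 326 FPKM in controls (2674 and 5478 reads). Both controls were above both DMF libraries, but the controls themselves differed by a factor of 2.61. The means were 43.5 ± 1.04 FPKM in DMF and 226 ± 142 FPKM in control libraries (SD, n = 2 each), a ratio of 0.193 and a log2 difference of -2.19. With control replicate 1 left out the difference was -2.88, and with control replicate 2 left out it was -1.50. Ly6a still lay above 89.7% and 90.2% of tested genes in DMF libraries, and above 97.3% and 98.2% in controls.

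Ly6e (ENSMUSG00000022587), an antigen of thymocytes that is made in many tissues, was also lower in both DMF libraries. It was at 24.2 and 23.1 FPKM in DMF libraries (1677 and 1632 reads), against 58.8 and 107 FPKM in controls (3946 and 5649 reads). The groups did not overlap, and control replicate 2 was again the higher control. The means were 23.7 ± 0.790 FPKM in DMF and 83.0 ± 34.2 FPKM in control libraries (SD, n = 2 each), a ratio of 0.285 and a log2 difference of -1.71. Of all tested genes, 98 were as low on that scale (0.806%), and 34 were as low as Ly6a (0.279%). Against control replicate 2 alone the Ly6e difference was -2.13, and against control replicate 1 alone it was -1.28.

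Ly6c1 (ENSMUSG00000079018), which encodes a form of the Ly6C antigen of monocytes, endothelium and some T cells, was a low transcript. It had 2 and 0 reads in DMF libraries (0.0652 and 0 FPKM), against 54 and 104 reads in controls (1.82 and 4.45 FPKM). A count of 0 allows up to 3 reads, which is 0.0958 FPKM in DMF replicate 2. The ratio of summed reads, scaled by the library sizes implied by the FPKM, was 0.0108, DMF over control. Its exact 95% binomial interval was 0.00130 to 0.0398. Intervals and limits of this kind cover counting error only. The log2 difference was -1.92 with a pseudocount of 1, -4.52 with a pseudocount of 0.1 and -6.31 on voom's scale, so its size depends on that choice.

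Ly6c2 (ENSMUSG00000022584), the neighbour with 97.7% coding identity, did not follow Ly6c1. It had 22 and 13 reads in DMF libraries (0.439 and 0.254 FPKM), against 14 and 12 reads in controls (0.288 and 0.314 FPKM). The control values lay between the DMF values. The ratio of summed reads, scaled by the same implied sizes, was 1.15 with an exact 95% binomial interval of 0.674 to 1.99, DMF over control. Its log2 difference was 0.05, and it was -0.05 without DMF replicate 1, -0.0022 under quantile normalization and 0.26 with the gene length trend removed. Per kilobase, Ly6c1 exceeded Ly6c2 in both controls and was below it in both DMF libraries.

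Ly6d (ENSMUSG00000034634) went the other way. It was at 4.70 and 6.55 FPKM in DMF libraries (64 and 91 reads), against 0.834 and 4.05 FPKM in controls (11 and 42 reads). The lower DMF library was only just above the higher control. The means were 5.63 ± 1.31 FPKM in DMF and 2.44 ± 2.28 FPKM in control libraries (SD, n = 2 each), a ratio of 2.30 and a log2 difference of 1.11. Against control replicate 1 alone the difference was 1.84 and against control replicate 2 alone it was 0.38, so its size rests on the control used.

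Most B cell markers lay on the same side as Ly6d, without passing the test. Of 10 tested B cell markers, 8 had both DMF values over both control values and 1 had them under, against 26.4% and 26.8% of all tested genes, and the median difference was 0.80 on the log2 scale (limma called 0, with 6 at an unadjusted p under 0.05). Spib, a transcription factor of the B lineage, was at 6.12 ± 0.00678 FPKM in DMF and 2.68 ± 0.315 FPKM in control libraries (SD, n = 2 each; limma adjusted p = 0.277). Pax5, another such factor, was at 1.65 ± 0.137 FPKM in DMF and 0.362 ± 0.145 FPKM in control libraries. Ighd, an immunoglobulin heavy chain gene, was at 3.64 ± 0.432 FPKM in DMF and 1.00 ± 0.452 FPKM in control libraries. The marker with the lower DMF values was Ighm, the immunoglobulin heavy chain of IgM, at 62.7 and 62.4 FPKM in DMF libraries and 71.6 and 107 FPKM in controls (limma adjusted p = 0.561). Ighm makes up most of the summed level of the 14 listed markers, which was 102 and 101 FPKM in DMF libraries and 87.1 and 127 FPKM in controls, and 0 of them were at 0 in either group. Within a library, Ly6d stood to Cd79b, a B cell receptor subunit, at ratios of 0.977 and 1.17 in DMF libraries and 0.604 and 1.14 in controls, which overlap. The part of B cells in the Ly6d difference was not tested.

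As a sum, the 6 genes held 77.6 and 79.2 FPKM in DMF libraries and 251 and 538 FPKM in controls. Ly6a made up 55.1% and 55.8% of that sum in DMF libraries and 49.8% and 60.7% in controls, which overlap. Thy1 made up 7.005% and 6.45% in DMF libraries, against 25.6% and 17.8% in controls. Ly6d made up 6.06% and 8.27% in DMF libraries, against 0.332% and 0.753% in controls. In DMF libraries the order of the levels was Ly6a, Ly6e, then Thy1 and Ly6d within each other's range, then Ly6c2 and Ly6c1. In control libraries Ly6a was highest and Thy1 and Ly6e overlapped below it, followed by Ly6c1 and Ly6d, which overlapped, and Ly6c2. The ratio of Ly6a to Ly6e was 1.77 and 1.91 in DMF libraries and 2.13 and 3.05 in controls. The ratio of Thy1 to Ly6e was 0.225 and 0.221 in DMF libraries and 1.09 and 0.891 in controls, so Thy1 was lower relative to Ly6e in both DMF libraries than in either control.

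Gene length bears on these values, since the controls differed along it. Among the 500 tested genes closest in length to Ly6a, the median log2 difference between control replicate 2 and control replicate 1 was 0.78, against 1.38 for Ly6a itself. The same genes had a median DMF minus control difference of -0.44, against -2.19 for Ly6a. For Thy1, the genes of like length had a median DMF minus control difference of -0.15, against -3.66 for Thy1. With the length trend removed, Ly6a differed by -1.82 and Ly6c1 by -1.58, and Thy1, Ly6a, Ly6c1 and Ly6e stayed lower in DMF libraries without overlap.

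**Figure D2:**
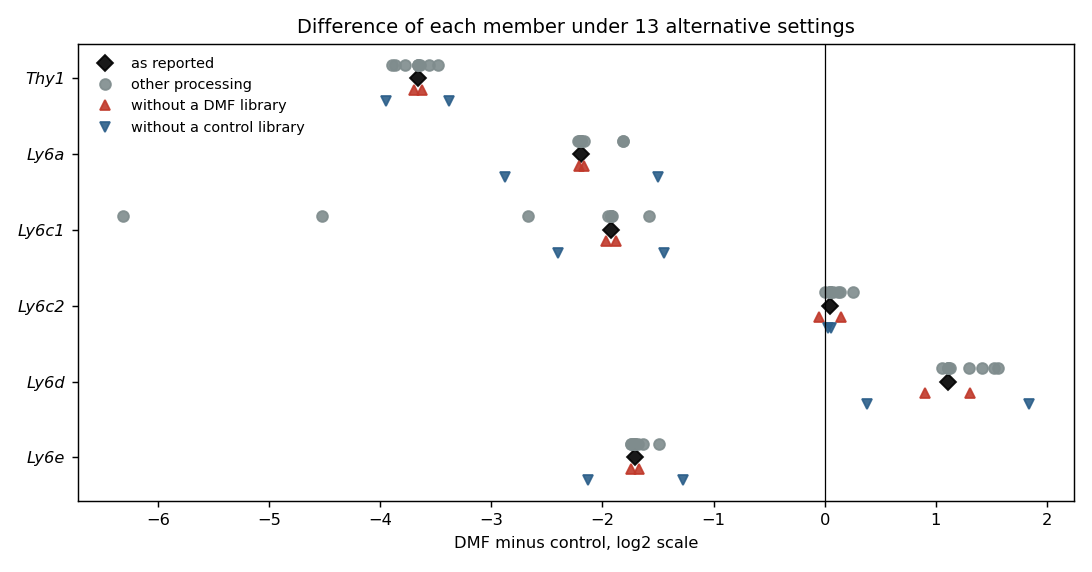
Difference between DMF and control (horizontal axis, log2 scale) of each gene as reported (black diamonds), under other processing (grey circles), without a DMF library (red triangles) and without a control library (blue triangles). Thy1 ran from -3.94 to -3.38 over the 13 alternatives, Ly6d stayed above 0 and Ly6c2 lay on both sides of it.

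The Ly6 interval from Ly6d to Ly6c2 spans 350 kb and holds 23 annotated genes, 13 of them protein-coding, of which 5 were tested. Ly6k, a relative known for its part in sperm function, lay with the lower group. It had 2 and 9 reads in DMF libraries (0.132 and 0.581 FPKM), against 20 and 29 reads in controls (1.36 and 2.51 FPKM; limma adjusted p = 0.476). Ly6i, between Ly6e and Ly6a and below the filter, had 2 and 3 reads in DMF libraries, against 11 and 19 reads in controls. Ly6g, the neutrophil antigen beyond Ly6c2, had 0 reads in both DMF libraries and 5 and 6 reads in controls. Of the tested genes of the interval, only Ly6d was higher in DMF libraries.

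**Figure D3:**
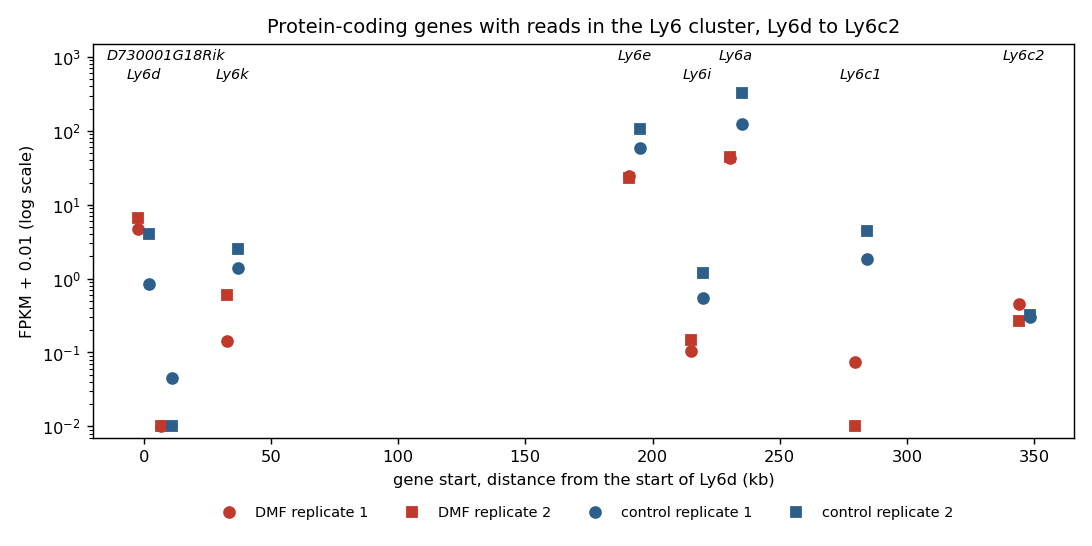
Protein-coding genes with at least 1 read between Ly6d and Ly6c2, by the distance of their start from that of Ly6d in kb (horizontal axis) and their level as FPKM + 0.01 (vertical axis, log scale), with DMF libraries in red and control libraries in blue. Ly6e and Ly6a stand far above their neighbours in all 4 libraries, and Ly6d alone has both DMF libraries above both controls.

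The nearest tested genes on either side of the interval did not lie with the lower group. Lynx1 and Them6 lie 9010 and 37417 bp before it, but Zfp41 and Top1mt lie 504709 and 545065 bp after it. Genes closer to that end did not pass the filter on low values and are not covered. Before the interval, Them6 was at 14.8 ± 2.2 FPKM in DMF and 18.3 ± 7.02 FPKM in control libraries (SD, n = 2 each), with overlap. Lynx1, a Ly6 relative that acts on nicotinic receptors in neurons, was at 1.70 ± 0.328 FPKM in DMF and 1.46 ± 0.00761 FPKM in control libraries. After the interval, Zfp41 overlapped between the groups. Top1mt, a mitochondrial topoisomerase, was at 10.9 ± 0.342 FPKM in DMF and 6.51 ± 1.28 FPKM in control libraries (SD, n = 2 each; limma adjusted p = 0.467). Beside Thy1, the long noncoding RNA Gm39323 lies 2325 bp before its start on the opposite strand. It was at 3.77 and 3.48 FPKM in DMF libraries, against 12.96 and 3.78 FPKM in controls (limma adjusted p = 0.561). The groups did not overlap, but the lower control was close to the DMF libraries, whereas for Thy1 that same control was the higher one. E230034D01Rik, Rnf26 and Mcam, the other tested neighbours of Thy1, overlapped between the groups.

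Of 44 other members of the Ly6 and urokinase receptor family, 39 were in the table, 4 passed the filter on low values and 19 had no read in any library. limma called 0 of the 4 in either direction, with 2 at an unadjusted p under 0.05. Plaur, the urokinase receptor, was at 1.17 ± 0.0858 FPKM in DMF and 4.56 ± 1.39 FPKM in control libraries (SD, n = 2 each), a log2 difference of -1.34 ± 0.26 (SE, limma adjusted p = 0.277). Ly6g5b, a family gene of the major histocompatibility complex region, was at 0.511 and 1.37 FPKM in DMF libraries and 1.73 and 1.95 FPKM in controls.

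Among other GPI-anchored proteins the differences ran from -1.06 to 1.20 on the log2 scale. Of 32 listed, 16 were tested, 8 lay below both controls, 4 lay above and 4 overlapped. Of all tested genes, 26.8% lay below and 26.4% above. The list's median was -0.32, against -0.01 over all tested genes. limma called 0 of the 16 in either direction, with 4 at an unadjusted p under 0.05. Cd160, a receptor of cytotoxic lymphocytes, was at 1.19 ± 0.22 FPKM in DMF and 3.03 ± 0.937 FPKM in control libraries (SD, n = 2 each; limma adjusted p = 0.476). Higher in DMF libraries were Ulbp1, a ligand of the receptor NKG2D, at 18.3 ± 0.998 against 8.03 ± 4.67 FPKM in controls, and Art2b, an ADP-ribosyltransferase, at 3.13 ± 0.28 against 1.59 ± 0.346 FPKM in controls. Cd52, among the most abundant GPI-anchored transcripts and named as an example after its values were seen, was at 207 and 206 FPKM in DMF libraries and 283 and 597 FPKM in controls.

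Genes that build and remodel the GPI anchor lay in both directions. Of 30 listed, 28 were tested, limma called 0 (1 at an unadjusted p under 0.05), 6 lay below both controls, 4 above and 18 overlapped. The shares of all tested genes were 26.8% below and 26.4% above. The list's median difference was -0.02, near the -0.01 over all tested genes. Pigw, an acyltransferase of the pathway, was at 6.16 ± 0.571 FPKM in DMF and 3.68 ± 0.0787 FPKM in control libraries (SD, n = 2 each; limma adjusted p = 0.461). Pigv, a mannosyltransferase, was at 4.18 ± 0.517 FPKM in DMF and 6.17 ± 0.34 FPKM in control libraries. Pigp and Pigx, subunits of other enzymes of the pathway, had log2 differences of -0.97 and -0.62.

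Interferon response genes lay mostly on the side of Ly6a and Ly6e. Of 37 listed, 33 were tested, 24 had both DMF values under both control values and 4 had them over, where 26.8% and 26.4% of all tested genes did so. Their median difference was -0.70, and limma called 0 of them, with 18 at an unadjusted p under 0.05. Igtp, an interferon-gamma induced GTPase, was at 28.0 ± 0.682 FPKM in DMF and 91.1 ± 24.1 FPKM in control libraries (SD, n = 2 each), a log2 difference of -1.64 ± 0.26 (SE, limma adjusted p = 0.222). Gbp2, another such GTPase, was at 45.1 ± 3.51 and Dhx58, a relative of viral RNA sensors, at 3.36 ± 0.585 FPKM in DMF libraries, against 115 ± 8.85 and 9.99 ± 1.17 FPKM in controls. Xaf1, an interferon-induced gene, was at 1.59 ± 0.0959 FPKM in DMF and 5.64 ± 1.01 FPKM in control libraries. The list's median was -0.54 with control replicate 2 left out and -0.75 with control replicate 1 left out. Without control replicate 2, limma called 14 of the list lower and 0 higher, beside 1007 calls over all 12166 tested genes. Without control replicate 1 it called 24 lower and 3 higher, beside 7420 calls over all tested genes.

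**Figure D4:**
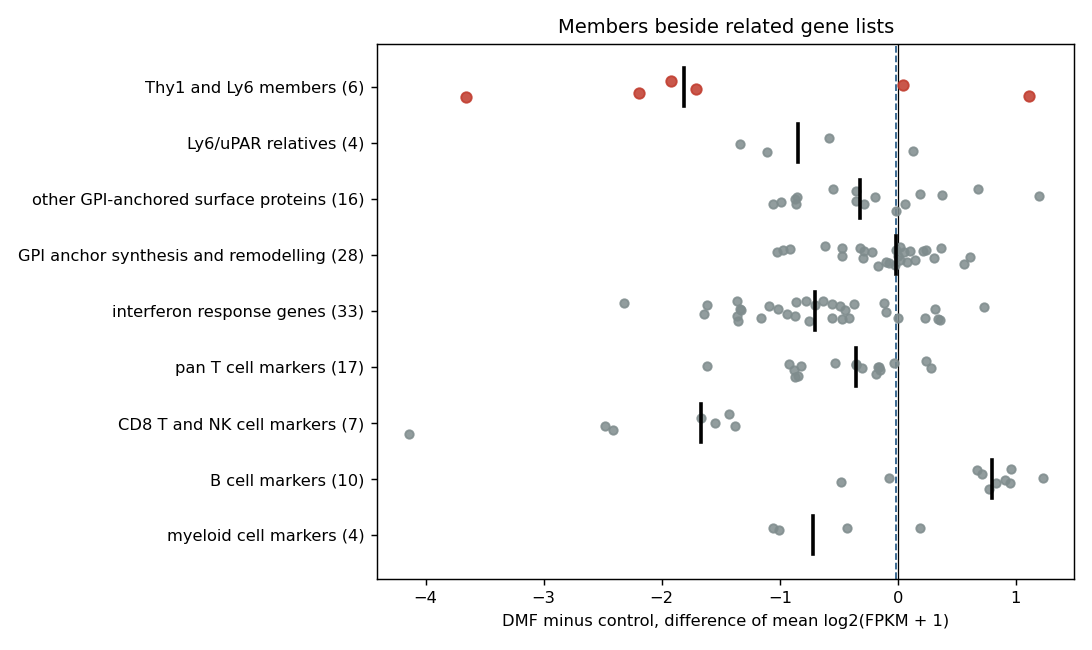
Difference between DMF and control libraries (horizontal axis, difference of mean log2(FPKM + 1)) for each of the 6 genes and for each tested gene of 8 lists, with the number of points in brackets, black bars at list medians and a dashed line at the median of all tested genes. The 6 genes run from -3.66 to 1.11, the GPI anchor genes centre on -0.02 and the interferon response genes on -0.70.

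Tested markers listed for CD8 T and NK cells lay on the side of Thy1 and Ly6a. All 7 tested markers of CD8 T and NK cells, which carry Thy1 too, had DMF values under every control value. Of all tested genes, 26.8% did so. The median of the 7 was -1.67 (limma called 0, with 7 at an unadjusted p under 0.05). The 14 listed markers summed to 34.2 and 29.8 FPKM in DMF libraries, against 171 and 292 FPKM in controls. Gzmb, a cytotoxic protease, was the largest part of the control sums, at 98.1 and 131 FPKM. It was at 5.14 and 5.82 FPKM in DMF libraries. The sum therefore mostly follows a few effector genes and is no measure of cell number. Klrb1c and Ncr1, which define NK cells, had no reads in any library, and Gzma had 2 reads in control replicate 2 and none elsewhere. Cd8a was at 0.105 and 0.0589 FPKM in DMF libraries, against 1.68 and 2.17 FPKM in controls, which is 0.00102 and 0.000587 of the Cd4 level in DMF libraries and 0.0131 and 0.0208 of it in controls. Klrd1, an NK receptor subunit, was at 0.44 ± 0.442 FPKM in DMF and 7.07 ± 2.52 FPKM in control libraries. The part of such cells in the differences of Thy1, Ly6a and Ly6e was not tested.

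T cell markers ran from -1.62 to 0.28 on the log2 scale. Of 17, all tested, 11 lay below both controls, 0 lay above and 6 overlapped. Of all tested genes, 26.8% lay below and 26.4% above. The median of the 17 was -0.35, and limma called 0, with 2 at an unadjusted p under 0.05. Under quantile normalization that median was 0.11, so its direction depends on the scaling. Cd2, an adhesion receptor, had the lowest difference of them, at 58.67 ± 1.081 FPKM in DMF and 190 ± 78.2 FPKM in control libraries (SD, n = 2 each; limma adjusted p = 0.331). Cd247, Cd3g and Cd3d, subunits of the T cell receptor complex, had log2 differences of -0.88, -0.85 and -0.93. Measured from the median of the 17 markers in the same library, log2(FPKM + 1) of Thy1 stood at -4.17 and -4.27 in DMF libraries and -1.15 and -1.35 in controls. On that footing the difference was -2.97 for Thy1, -1.50 for Ly6a and -1.01 for Ly6e, and none of these 3 overlapped between groups.

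Myeloid markers were low throughout. The 16 listed genes summed to 11.0 and 7.95 FPKM in DMF libraries, against 10.5 and 15.4 FPKM in controls, which overlap. Of the 4 tested, 2 lay below both controls and 1 above, against 26.8% and 26.4% of all tested genes. Lyz2, the lysozyme of macrophages and granulocytes, was at 1.58 and 0.407 FPKM in DMF libraries, against 2.40 and 3.33 FPKM in controls (limma adjusted p = 0.527). Cd68, a lysosomal protein of macrophages, was at 5.83 ± 0.0088 FPKM in DMF and 5.02 ± 0.568 FPKM in control libraries. The neutrophil genes S100a8 (7 and 0 reads in DMF libraries) and S100a9 (3 and 2 reads) had no reads in the controls. Mpo had none in DMF libraries and 2 and 1 reads in controls. The part of myeloid cells in the Ly6c1 difference was not tested.

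The genes whose profiles over the 4 libraries were closest to each of the 5 tested members were found by the root mean square distance between centred log2(FPKM + 1) values, a description over 4 libraries of 2 groups. Gzmb, the cytotoxic protease granzyme B, was closest to Thy1 at 0.259, followed by Batf3, an AP-1 family transcription factor, at 0.283 and AA467197 at 0.378. Gzmb was at 5.48 ± 0.482 FPKM in DMF and 115 ± 23.3 FPKM in control libraries, and Batf3 at 0.473 ± 0.185 FPKM in DMF and 18.3 ± 11.4 FPKM in control libraries. Ifi27l2a, an interferon-induced gene, was closest to Ly6a at 0.0777, with 138 ± 6.73 FPKM in DMF and 760 ± 446 FPKM in control libraries. Ctla2a and Nkg7 followed it at 0.124 and 0.125. Socs1, an inhibitor of cytokine signalling, was closest to Ly6e at 0.0346 and the third closest to Ly6c1 at 0.081, with 10.2 ± 0.408 FPKM in DMF and 39.0 ± 17.1 FPKM in control libraries. Susd3 and Cd2 were next to Ly6e, and Ltb, a lymphotoxin chain, and Castor1, an arginine sensor, were nearest to Ly6c1. H2-Aa, an MHC class II chain, and Cd79b were closest to Ly6d at 0.207 and 0.223. H2-Aa was at 15.1 ± 0.0112 FPKM in DMF and 7.06 ± 3.94 FPKM in control libraries. Nanp, an enzyme of sialic acid synthesis, was the third at 0.298.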

How the data were processed

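RNA-seq was measured in 4 libraries, 2 with DMF and 2 controls. The authors deposited 1 table of FPKM per gene and library with gene names, lengths and coordinates, per the file headers. Per the submitters' processing notes, edgeR and the build mm8 were used, with no role stated. Aligner and read counter: not given in the sources used here. Of 54495 gene identifiers found in GENCODE M21 (GRCm38), 98.33% have the same coordinates in the table, so positions are given as GRCm38.

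FPKM times gene length gave whole multiples of 1 step for 100% of values, within 0.01, which gave reads per gene (15900118 to 17516953 per library, at least 99.13% of them in tested genes). A count of 0 reads allows up to 3. Replicates of a group differed beyond counting error (chi-square per degree of freedom 3.61 for DMF and 147 for control) and were kept as separate samples.

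limma 3.58.1 in R 4.3.3 (lmFit, eBayes with trend) was run on log2(FPKM + 1), DMF minus control, two-sided, over the 12166 genes with a mean of at least 1 FPKM, adjusted by Benjamini-Hochberg and called under 0.05. Differences on this scale understate changes of low genes. Coding sequences (the commonest complete coding length in GENCODE M21) were aligned with Biopython 1.88, and binomial intervals came from SciPy 1.17.1. The members and lists were chosen with earlier results of these data known, and the members get no test. Named were the members, Cd4, Cd8a, Lyz2 and 1 more marker that is not reported here, up to 4 tested genes of each list with the smallest p, the 2 nearest tested genes on each side of Thy1 and of the Ly6 interval, and the 3 genes most like each tested member. Some of these are counted but not described. Cd3e, Cd52, Gzma, Ighm, Klrb1c, Ly6g, Ly6i, Mpo, Ncr1, S100a8 and S100a9 fall outside this rule and were chosen after their values were seen. Ifih1, Ifit1, Ifit3 and Rsad2 were added in the same way. Alternatives were 2 other pseudocounts, 2 other filters, quantile and trimmed-mean scaling, removal of the gene length trend, the replicate number as a block, voom on recovered reads, and each library left out.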

Additional observations from a re-analysis of the deposited data

How the results depend on the processing

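Over 13 alternatives, Thy1, Ly6a, Ly6c1 and Ly6e were lower and Ly6d higher in every one, with no overlap between groups, and Ly6c2 kept its sign in 11. Both filters and the replicate block leave a member's difference as it was, so they could not change a sign. Ly6c1, Ly6c2 and Ly6d do not pass the filter of 5 FPKM, and their unfiltered values are counted there. Only the rescalings, the length trend and voom could have produced an overlap: the other alternatives cannot make separate groups overlap, so they do not bear on this. The number of members without overlap ran from 5 to 6. The median difference of the 6 genes, -1.82, was between -2.27 (without control replicate 1) and -1.36 (without control replicate 2) when a library was left out. Ly6c1 moved most, to -2.67 and -4.52 with the smaller pseudocounts and -6.31 under voom, its DMF values being near 0. Ly6c2 was at 0.26 with the length trend removed, and the cause was not tested.

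The count of genes called over the whole table, 0, was 552 with the replicate block and ran from 6 to 7420 when a library was left out (it was 8 or 6 with a DMF library left out, 1007 without the second control and 7420 without the first). Leaving out a control assumes that the lone control varies like the DMF libraries. Both groups carry replicate numbers 1 and 2, but the labels do not say that a number marks a shared animal or day. Deviations of same-numbered libraries had a correlation of -0.0233 over genes. With 2 libraries per group and control replicate 2 standing apart, this cannot show whether the numbers mark a pairing. Among 50 other named genes, 537 of 627 values were counted as unchanged. These stayed short of the threshold and kept their direction or changed by less than the gene's SD within groups. Another 3 changed direction by more than that. The rest passed the threshold in the same direction, 20 of them with the replicate block and the others with a library left out. Among those 50, genes below a mean of 5 FPKM have no value under that filter. Depth limits Ly6c1 in the DMF libraries and Ly6c2 in all 4, where a library held 22 reads or fewer.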
